A study of Mus musculus with 6 samples.

Results

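The genes described here encode the coat and growth proteins of the lipid droplet, the organelle in which a fat cell keeps its triglyceride. They were taken as all probe sets that the array annotation assigns to a single gene symbol among Plin2, Plin3, Plin4, Plin5, Cidea, Cideb, Cidec, Bscl2, Fitm2 and G0s2. All 10 genes were found, with 12 of the 45037 probe sets tested, against 18193 genes in all. Bscl2 and Plin5 have a pair of probe sets each. Expression was measured on GeneChip arrays of the Mouse Genome design by Affymetrix. Mature adipocytes (AC) gave 3 arrays and dedifferentiated fat cells (DFAT) gave another 3, and the comparison asks how expression differs between them. AC were primary cells isolated from mouse fat tissue and received no treatment named in the labels. DFAT cells were adipocytes that had dedifferentiated in ceiling culture, in which floating fat cells attach to the upper surface of a filled flask, and had then been grown to semiconfluence. The methods describe DFAT as a line, made from adipocytes of mice with a GFP transgene, and do not say whether AC carried GFP. Dedifferentiation, culture and the source of the cells thus differ together between the groups and cannot be told apart. Words such as fell, rose and kept name a difference between the groups, not a course followed in the same cells. Strain, age, sex and fat depot are not given in the sources used here, nor do they say if the arrays within a group stand for different animals or cultures, so the p-values cover the spread among these arrays alone, which may be technical.

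A lipid droplet is a core of triglyceride and sterol ester within a single layer of phospholipid, and the proteins bound to that layer govern its growth and its breakdown. Perilipins form the coat. Plin4 and the fat cell perilipin Plin1 are typical of adipocytes, Plin2 and Plin3 are found in most cells, and Plin5 is known from heart, muscle and brown fat, where it links droplets to mitochondria. The CIDE proteins move lipid from smaller to larger droplets where droplets touch, Cidec in white fat, Cidea in brown fat and mammary gland and Cideb in liver. Seipin, encoded by Bscl2, and Fitm2 act in the membrane of the endoplasmic reticulum, where droplets form. G0s2 binds and inhibits the triglyceride lipase ATGL.

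Most of the members fell, to very different extents. Of the 10 genes, 8 were lower in DFAT cells, none was higher, and Plin3 and Cideb did not pass the test (limma, Benjamini-Hochberg adjusted p under 0.05 over all probe sets, 1 probe set per gene). Over all genes, 23.8% were called lower and 22.6% higher. The median difference of the members, DFAT cells minus AC, was -2.60 on the log2 scale, beside -0.10 over all genes. At least 4-fold lower and past the test were 6 members, where 6.65% of all genes were. Every AC array lay above every DFAT array for 8 members, as it did for 32.5% of all genes. On these bulk arrays, fewer cells that use a gene and less of its RNA per cell cannot be told apart.

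**Figure D1:**
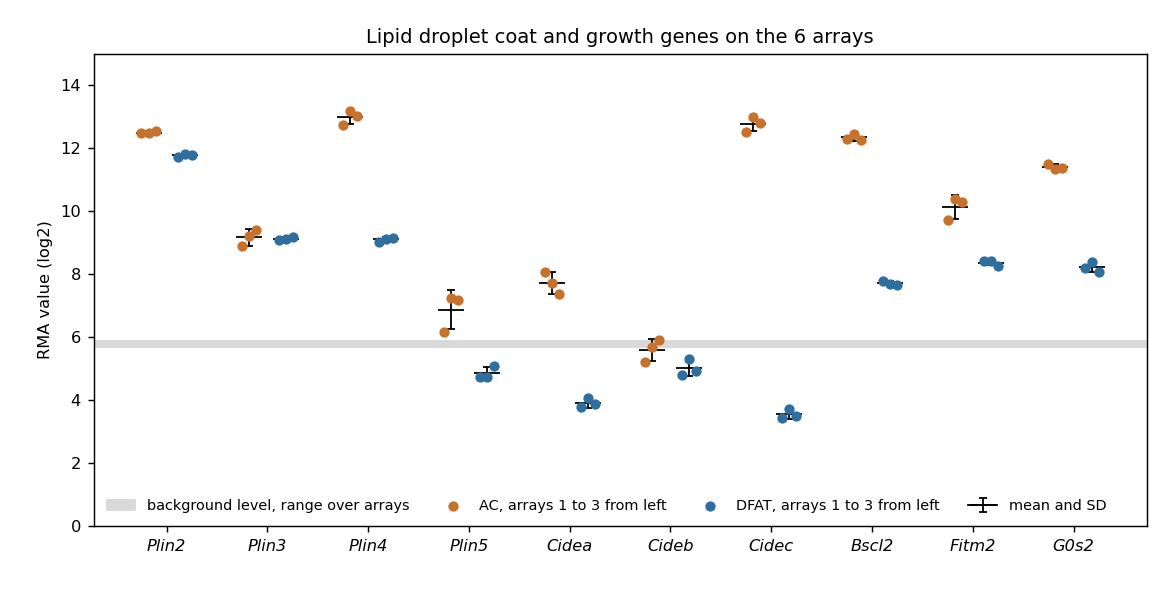
Log2 RMA values (vertical axis) of the 10 genes, 1 probe set each, on 3 AC arrays (orange) and 3 DFAT arrays (blue), with 1 point per array, the mean and SD in black, and the grey band is the background level of the arrays, 5.69 to 5.87. AC and DFAT points overlap for Plin3 and Cideb, and for Cidec the groups are farthest apart.

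The background level, drawn as the grey band in the plot of values by array, was taken on each array as a 95th percentile. It came from 113 probe sets of sense organ, lens, retina, sperm and egg coat genes. It ranged from 5.69 to 5.87 on the log2 scale and stands in for a detection call, which these values no longer hold. No member lay at or under it on all 3 AC arrays. Cidec, Cidea, Cideb and Plin5 did so on all 3 DFAT arrays. Their differences are therefore given also with every value under the level raised to it, which bounds the fall.

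The array of AC replicate 1 stood apart from the others of its group, with a Pearson correlation across probe sets of 0.971 and 0.969 to them, against 0.991 between the other AC arrays and 0.995 to 0.996 among DFAT arrays. All 12 measured white adipocyte markers were above background level in AC, and 10 were at it in DFAT cells, with Fabp4 and Lpl as the exceptions. The AC arrays also carried markers of other cells. None of 18 endothelial markers was at background level on all AC arrays, nor were any of 18 macrophage markers but Itgam and Fcgr1, or any of 15 epithelial and mammary markers but Wap. The mean of the endothelial markers reached 9.60 on AC replicate 1 and was 7.81 and 7.74 on the remaining AC arrays, and for the macrophage markers it was 6.51, lower than the 8.08 and 8.07 of the remaining ones. Epithelial and mammary markers averaged 8.73 on replicate 1, 8.17 on replicate 2 and 8.13 on replicate 3. In DFAT cells the 3 lists had means of 4.44 to 4.61 on every array. The part of such cells in the differences of the members was not tested. Of the members, 6 were lowest of AC on replicate 1, Plin3, Plin4, Plin5, Cideb, Cidec and Fitm2, and Cidea and G0s2 were highest there.

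Promoter sequence is shown for members that differ in how far they fell, Cidec and Plin4 at one end and Plin2 and Plin3 at the other, with Bscl2 for the proteins of the endoplasmic reticulum. Each run is the 250 bases before the outermost annotated start site of the gene, 5′ to 3′ on the strand of the gene, from RefSeq with the build GRCm38.p6. Capitals mark matches to the motifs searched, and positions count back from -1, the base before the start.
Cidec (chr6:113435761-113436010, minus strand): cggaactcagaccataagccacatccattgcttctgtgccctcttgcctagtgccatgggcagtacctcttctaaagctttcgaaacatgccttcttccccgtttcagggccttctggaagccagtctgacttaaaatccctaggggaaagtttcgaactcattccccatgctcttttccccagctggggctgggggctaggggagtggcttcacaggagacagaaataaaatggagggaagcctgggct
Plin4 (chr17:56109783-56110032, minus strand): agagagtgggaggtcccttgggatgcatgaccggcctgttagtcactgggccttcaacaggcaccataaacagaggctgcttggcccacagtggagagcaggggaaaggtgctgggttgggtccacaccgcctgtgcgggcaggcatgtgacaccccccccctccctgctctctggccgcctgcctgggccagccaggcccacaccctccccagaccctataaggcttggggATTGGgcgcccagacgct
Bscl2 (chr19:8837217-8837466, plus strand): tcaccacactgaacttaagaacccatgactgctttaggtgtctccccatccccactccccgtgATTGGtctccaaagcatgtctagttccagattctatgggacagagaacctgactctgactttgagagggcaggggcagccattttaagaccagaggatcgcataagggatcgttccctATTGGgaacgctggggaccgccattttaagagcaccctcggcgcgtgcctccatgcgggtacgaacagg
Plin2 (chr4:86670060-86670309, minus strand): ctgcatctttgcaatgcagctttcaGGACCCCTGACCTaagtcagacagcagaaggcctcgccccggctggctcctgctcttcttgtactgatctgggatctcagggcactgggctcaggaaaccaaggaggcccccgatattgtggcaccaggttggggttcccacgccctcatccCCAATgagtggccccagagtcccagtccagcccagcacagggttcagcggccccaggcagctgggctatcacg
Plin3 (chr17:56290512-56290761, minus strand): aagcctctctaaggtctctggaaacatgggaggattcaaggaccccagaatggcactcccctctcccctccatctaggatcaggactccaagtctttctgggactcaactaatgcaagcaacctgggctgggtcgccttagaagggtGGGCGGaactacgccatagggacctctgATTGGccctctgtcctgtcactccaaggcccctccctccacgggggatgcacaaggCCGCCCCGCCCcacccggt
The motifs were searched on both strands of all 32851 windows of 250 bases before an annotated start site, inner start sites included. These windows cover 27025 genes, some with more than 1 window, and 13 of the windows belong to 9 of the members. The direct repeat known from binding by PPAR and RXR, AGGTCANAGGTCA, had no exact match in a member window and matched exactly in 0.033% of all windows. Allowing up to 2 mismatches, it matched 1 member window, that of Plin2, at position -225, and 3.24% of all windows. The C/EBP motif TTGCNNAA matched 1 member window, that before another annotated start of Cidec, at position -198, and 9.56% of all windows. The GC box GGGCGG was in 6 of the 13 member windows, among them that of Plin3, and in 32.7% of all, and CCAAT was in 5 of the 13 and in 33.8% of all. TATAAA was in 1 of the 13, a window of Cideb, and in 12.4% of all, and CACGTG was in none of the 13 and in 6.02% of all. A match describes letters only and is no evidence of binding.

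Among the perilipins measured, Plin4 fell most and Plin3 did not pass the test. Plin1 had no probe set assigned to it alone and was not measured. Plin4, the coat protein of small new droplets in adipocytes, had log2 values of 12.74, 13.19 and 13.02 in AC, against 9.03, 9.13 and 9.15 in DFAT cells. The groups were 3.59 apart at their nearest points, and Plin4 stayed well above background level in DFAT cells. It fell from 12.99 ± 0.23 (SD, n = 3) to 9.11 ± 0.06 (SD, n = 3), a difference of -3.88 ± 0.15 (SE) or 14.7-fold (adjusted p = 7.16e-07 from limma).

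Plin5, the perilipin of oxidative tissues, was measured by a pair of probe sets. The probe set ending in _s_at, which can also match other transcripts, had 6.18, 7.26 and 7.19 in AC, against 4.73, 4.74 and 5.09 in DFAT cells. The _at probe set had 5.84, 6.56 and 6.32 against 4.37, 4.04 and 4.37. On both probe sets AC replicate 1 was the lowest AC array, and all DFAT values were at background level. The differences were close to each other, -2.02 ± 0.29 (SE, adjusted p = 0.000846 from limma) and -1.98 ± 0.21 (SE, adjusted p = 0.000146 from limma). With values raised to the background level, the _s_at probe set still fell, by 1.12, which is at least 2.17-fold, and the _at probe set had a difference of -0.48 that did not pass the test (adjusted p = 0.0817 from limma). Without AC replicate 1 the differences were -2.37 and -2.18.

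Plin2, also called adipophilin, coats droplets in nearly all cell types. Its values were 12.48, 12.48 and 12.55 in AC, against 11.71, 11.82 and 11.80 in DFAT cells. The spread within each group was small, and every DFAT array was at least 0.65 under the lowest AC array. Plin2 fell from 12.50 ± 0.04 (SD, n = 3) to 11.78 ± 0.06 (SD, n = 3), a difference of -0.72 with a 95% confidence interval of -1.004 to -0.443 (adjusted p = 0.00198 from limma), so DFAT cells kept 60.6% of the AC signal. Centring on 13 reference genes gave -1.05, and centring on the hybridization controls gave -0.26, where the call was lost (adjusted p = 0.432 from limma).

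Plin3, a soluble perilipin that moves to droplets as they form, had 8.88, 9.23 and 9.39 in AC, against 9.08, 9.14 and 9.18 in DFAT cells. The DFAT values lay within the range of AC. The difference was -0.037 with a 95% confidence interval of -0.41 to 0.33 (adjusted p = 0.883 from limma), so a change of more than 0.41 in either direction lies outside the interval. Its sign depended on the scaling, with 0.094 on the array median, 0.43 on the hybridization controls and -0.36 on the reference genes, none of which passed the test. Plin4 and Plin5 are neighbours on mouse chromosome 17, and Plin3 lies on the same chromosome with 7 protein-coding genes between it and Plin5.

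**Figure D2:**
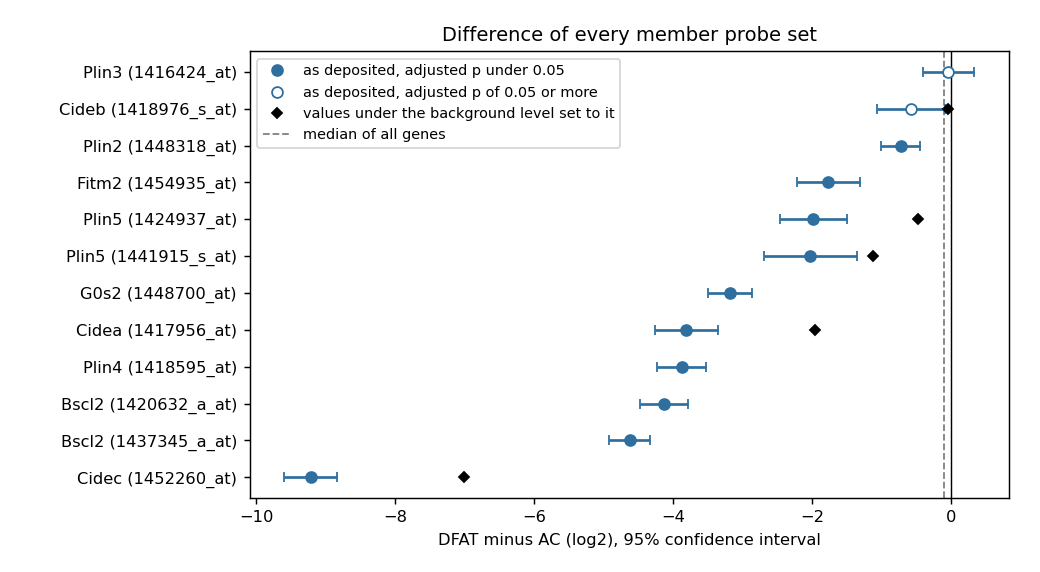
Difference DFAT minus AC on the log2 scale (horizontal axis) with its 95% confidence interval for each of the 12 probe sets, filled where the adjusted p was under 0.05. Black diamonds give the difference with values under the background level set to it, for probe sets at that level in DFAT cells, and the dashed line is the median of all genes, -0.10. Cidec lies at -9.22 as deposited and at -7.01 with the level applied.

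The CIDE genes differed from each other more than the measured perilipins did, from a fall to background level in Cidec to no call in Cideb. Cidec, also named Fsp27, which makes the single large droplet of white adipocytes, had log2 values of 12.53, 12.99 and 12.81 in AC, against 3.42, 3.73 and 3.51 in DFAT cells. It was far above background level on every AC array and at it on every DFAT array. The difference was -9.22 ± 0.16 (SE, adjusted p = 4.15e-08 from limma), rank 7 from the largest fall among the 18193 genes, and neither its size nor its rank is exact with DFAT cells at background level. With the level applied it was -7.01, which is at least 129-fold.

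Cidea, the CIDE protein of brown fat, had 8.07, 7.73 and 7.38 in AC, against 3.79, 4.08 and 3.88 in DFAT cells. All AC arrays were above background level and all DFAT arrays were at it. Its difference was -3.81 ± 0.19 (SE, adjusted p = 2.81e-06 from limma), and -1.96 or at least 3.90-fold with the level applied. Cidea was highest on AC replicate 1, and without that array its difference was -3.64. The endothelial markers and the epithelial and mammary markers were also highest on that array. The macrophage markers were lowest there. So was the mean of the brown and beige adipocyte genes, at 5.49 against 5.63 and 5.81. Each of these means lay under the background level of its array, so their order is not read further. Of 12 brown and beige adipocyte genes, 6 were lower and 1, Ebf2, was higher in DFAT cells, and 7 were at background level in AC. Ucp1, the uncoupling protein that defines brown fat, was among the latter, at 4.87 ± 0.26 in AC and 3.55 ± 0.16 in DFAT cells (SD, n = 3 each), while Cox8b, a subunit of cytochrome oxidase, had 10.64 ± 0.36 (SD, n = 3) in AC and was at background level in DFAT cells. The part of brown fat or mammary cells in the fall of Cidea was not tested.

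Cideb, which loads lipid onto lipoproteins in liver, has a single probe set here, of the _s_at kind that can also match other transcripts. It had 5.22, 5.68 and 5.90 in AC, against 4.82, 5.30 and 4.94 in DFAT cells. The groups overlapped, and AC replicate 3 alone was above background level. The difference was -0.58 with a 95% confidence interval of -1.07 to -0.09 (adjusted p = 0.0642 from limma), and -0.038 with the level applied. Without AC replicate 1 it was -0.77 (adjusted p = 0.00679 from limma), and centred on the reference genes -0.90 (adjusted p = 0.00787 from limma).

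Between members of a family, the unequal changes were set against each other within each array, where centring an array by a constant cancels. On the log2 scale, the change of Plin2 minus that of Plin4 was 3.16 and that of Plin3 minus that of Plin4 was 3.84. The change of Cidea minus that of Cidec was 5.41, with DFAT cells at background level for both. Pairs with Plin5 or a CIDE gene hold a gene at background level in DFAT cells, so their sizes are not exact. For each of the 9 pairs the within-array differences of AC and DFAT cells did not overlap, and the exact permutation test, two-sided, gave p = 0.1, the smallest that 3 against 3 arrays allow, with p = 0.1 after adjustment over the 9 pairs. This test thus cannot reach 0.05 for these differences, and no other test was run on them. How often pairs of other genes separate in this way was not counted. Among single genes separation was common, with every AC array above every DFAT array for 32.5% of all genes. The separation of the 9 pairs is therefore not read as a feature of these families.

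The genes for droplet formation in the endoplasmic reticulum also fell. Bscl2, whose loss in humans causes congenital lipodystrophy, had 12.30, 12.46 and 12.28 in AC, against 7.78, 7.71 and 7.67 in DFAT cells on the brighter of its probe sets. Its other probe set had 11.02, 10.67 and 10.70 against 6.71, 6.73 and 6.54. Both probe sets were above background level on all arrays, with differences of -4.63 ± 0.13 (SE) and -4.14 ± 0.15 (SE), which are 24.7-fold and 17.6-fold (adjusted p = 1.51e-07 and 4.66e-07 from limma).

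Fitm2 had 9.72, 10.41 and 10.29 in AC, against 8.42, 8.41 and 8.28 in DFAT cells. AC replicate 1 was the lowest AC array, yet 1.30 above the highest DFAT array. Fitm2 fell by 1.77 ± 0.20 on the log2 scale (SE, adjusted p = 0.000205 from limma), which is 3.41-fold, and by 1.98 without AC replicate 1. Its paralog Fitm1, known mainly from muscle, had 7.10 ± 0.07 in AC and 6.93 ± 0.07 in DFAT cells (SD, n = 3 each) and did not pass the test (adjusted p = 0.329 from limma), with -0.50 on the reference genes, where it did (adjusted p = 0.0128 from limma), and 0.29 on the hybridization controls.

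G0s2, the ATGL inhibitor, had 11.51, 11.35 and 11.36 in AC, against 8.21, 8.39 and 8.08 in DFAT cells. The groups were 2.96 apart at their nearest points. It fell by 3.18 ± 0.14 on the log2 scale, or 9.08-fold (SE, adjusted p = 1.19e-06 from limma). Its target Pnpla2, which encodes ATGL, fell by 5.10 (adjusted p = 2.74e-07 from limma), and Abhd5, the activator of ATGL that perilipins hold back at the droplet, fell by 1.51 (adjusted p = 0.000301 from limma). The inhibitor, the enzyme and the activator were thus all lower in DFAT cells, and lipolysis itself was not measured.

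**Figure D3:**
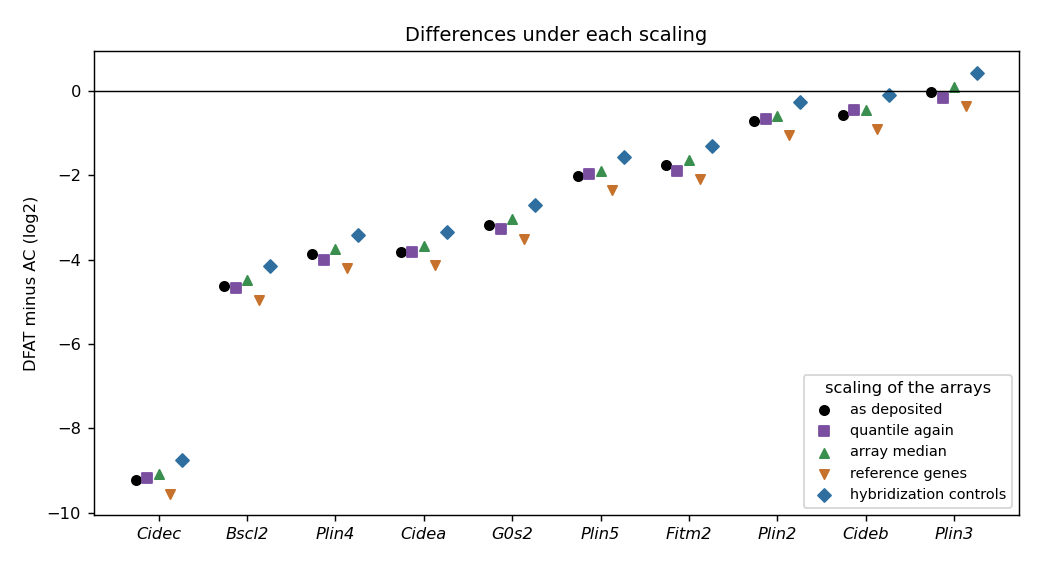
Differences DFAT minus AC on the log2 scale (vertical axis) of the 10 genes, 1 probe set each, with arrays as deposited, quantile normalized again, or centred on the array median, the reference genes or the hybridization controls. The 10 genes keep the same order under each, and Plin3 lies on both sides of 0.

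In the plot of the scalings, a change of centring moved every member by the same amount. Of the 13 reference genes, 8 were higher and 2 lower in DFAT cells as deposited. The median of all genes was -0.10 as deposited, -0.43 on the reference genes and 0.36 on the hybridization controls, and the median of the members was -2.60, -2.93 and -2.14. Centring shifts both medians alike, so their distance is the same on these scales by construction. Plin4, Plin5, Cidea, Cidec, Bscl2, Fitm2 and G0s2 passed the test as lower under each of the 4 other scalings and without each array in turn. Differences without each array in turn ranged from -9.34 to -9.12 for Cidec, from -4.00 to -3.78 for Plin4, from -3.99 to -3.64 for Cidea and from -0.75 to -0.69 for Plin2.

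Other genes of the droplet were taken from 4 lists. Of 8 genes of droplet lipolysis and its cofactors, 7 were lower and none higher in DFAT cells, with a median difference of -4.00. Ces1d, a carboxylesterase that hydrolyses triglyceride, fell by 8.45, the hormone-sensitive lipase Lipe by 7.77 and the monoglyceride lipase Mgll by 7.50, all to background level. Hilpda, a hypoxia-induced inhibitor of ATGL, had 8.51, 10.98 and 10.99 in AC, against 8.11, 8.28 and 8.37 in DFAT cells (adjusted p = 0.0382 from limma). Its difference was -1.91, -2.74 without AC replicate 1, and -1.45 on the hybridization controls, where the call was lost (adjusted p = 0.101 from limma). With the background level applied, the difference of Hilpda was -1.91 and missed the threshold (adjusted p = 0.0586 from limma). The lysosomal lipase Lipa had a difference of 0.39 and did not pass the test (adjusted p = 0.0714 from limma), and had 0.85 on the hybridization controls, where it passed (adjusted p = 0.0347 from limma).

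Of 12 measured enzymes of triglyceride synthesis that can reach droplets, 7 were lower and 2 higher, with a median of -1.59. Dgat2, the acyltransferase of the last step that works at the droplet surface, fell by 6.86, the phosphatidate phosphatase Lpin1 by 4.18 and the acyltransferase Gpat3 by 4.10. Dgat1, which makes triglyceride in the endoplasmic reticulum, fell by 2.91. Acsl4 and Lpin3 rose by 1.29 and 1.34, Lpin3 from background level in AC. Acsl4 had 7.20, 8.83 and 8.95 in AC, against 9.70, 9.53 and 9.62 in DFAT cells. Its difference was 0.72 without AC replicate 1 (adjusted p = 0.00152 from limma) and 0.96 on the reference genes, where the call was lost (adjusted p = 0.0752 from limma). With the background level applied it was 1.29 and missed the threshold (adjusted p = 0.0634 from limma), and that of Lpin3 was 0.51. The droplet acyl-CoA synthetase Acsl3 had a difference of 0.24 and did not pass the test (adjusted p = 0.361 from limma).

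Of 28 other measured proteins of the droplet surface and its contacts, 9 were lower, 7 higher and 12 did not pass the test, with a median of -0.17. Over all genes 23.8% were lower and 22.6% higher, with a median of -0.10, so this list was not far from genes at large. The counts of the list depended on the scale. They were 15 lower and 5 higher on the reference genes, and 4 lower and 7 higher on the hybridization controls. Without AC replicate 1 they were 13 lower and 7 higher. Mettl7a1, a droplet methyltransferase-like protein, fell by 4.30. Its paralog Mettl7b fell by 2.78 to background level, a difference of -1.55 with the level applied. Sqle, the squalene epoxidase of sterol synthesis, rose by 2.02. Among the others, Rab18 and Ldah had differences of 0.22 and 0.076 that did not pass the test, and of -0.11 and -0.25 on the reference genes.

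Of 12 transcription factors and coactivators known to act on members, 9 were lower, none was higher and 3 did not pass the test, with a median of -1.67. The liver X receptor Nr1h3 fell by 2.96 (adjusted p = 1.84e-06 from limma), Cebpa by 2.92, and Ppargc1a by 2.82 to background level. With that level applied the difference of Ppargc1a was -0.22 and did not pass the test (adjusted p = 0.115 from limma). The fall of Pparg, the receptor that drives fat cell genes, was 2.17 (adjusted p = 7.97e-06 from limma). The differences of Ppard, Esrra and Hif1a were 0.14, 0.38 and 0.43 without passing the test. Hif1a had 8.59, 11.35 and 10.97 in AC, and without AC replicate 1 its difference was -0.42 (adjusted p = 0.0572 from limma). Ppard had -0.19 on the reference genes, and Esrra had 0.84 on the hybridization controls, where it passed the test (adjusted p = 0.0472 from limma).

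**Figure D4:**
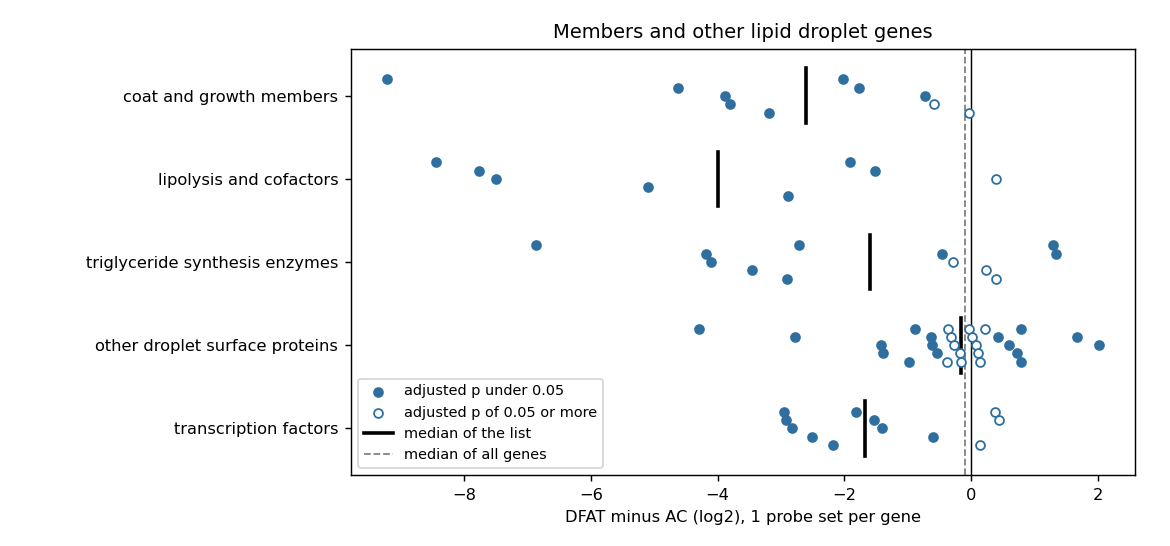
Differences DFAT minus AC on the log2 scale (horizontal axis) of the 10 members and of 4 lists of other lipid droplet genes, 1 probe set per gene, filled where the adjusted p was under 0.05, with the median of each list as a black bar and that of all genes as a dashed line. The median is -4.00 for lipolysis and -0.17 for the other surface proteins.

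The genes with the pattern most like that of Cidec over the 6 arrays, by mean absolute distance after each gene was centred on its own mean, were Rbp4, Pck1 and Gnai1, at distances of 0.151, 0.167 and 0.235 on the log2 scale. Their differences were -9.22, -8.98 and -9.55. For Plin2 they were Psma8, Gys1 and Coa5, at distances of 0.0295, 0.0325 and 0.0330, with differences of -0.67, -0.69 and -0.68. With a pair of groups and 6 arrays, likeness mostly reflects the size of the difference between AC and DFAT cells.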

How the data were processed

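Expression of 3 AC and 3 DFAT samples was measured on Affymetrix arrays. The authors deposited log2 values after RMA, which corrects background, normalizes between arrays and summarizes the probes of a probe set. The methods name the R package affy, and its version and the arrays normalized together are not given in the sources used here. Array medians were 4.92 to 5.11. The small number of arrays limits the precision. Groups came from the sample labels.

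Names of probe sets came from the annotation of the platform. Of 45037, after 64 controls were left out, 34945 have a single symbol, 932 several and 9160 none, and the Entrez IDs of 34741 are in RefSeq's GRCm38.p6 table, used for names. Since no build is named for the array, coordinates are those of the promoter table alone. The comparison used limma 3.58.1 in R 4.3.3 (lmFit, eBayes, two-sided, threshold 0.05 after Benjamini-Hochberg adjustment across all probe sets, no filter). Differences are DFAT minus AC. For each gene, the probe set of highest mean over the 6 arrays stood for it. Tested on simulated data with 45037 probe sets, the step recovered 37% of log2 changes of 1 and 93% of changes of 2, with 9 false calls. Those rates may differ for the real comparison, which called 17285.

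The members and lists were chosen with earlier results of these data known. Named were every probe set of the members, the 3 genes of each list that passed the test without overlap of the groups and differed most, genes whose role bears on a member, and the 3 genes most like Cidec and Plin2. Some others, such as exceptions within a list, were chosen once their values had been seen. Of the lists of skeletal muscle and hepatocyte markers, 5 of 12 and 4 of 11 were lower and none higher in DFAT cells, of the fibroblast markers 2 of 12 were lower and 9 higher, of the endothelial, macrophage and epithelial markers 18 of 18, 14 of 18 and 13 of 15 were lower and none higher, and all 9 measured cell cycle genes were higher. Alternatives were other scalings, a floor at the background level, a dim filter that kept 22519 probe sets, array weights, robust or trended variances, a replicate block, the methods' t-test and fold rule, other rules for probe sets, other background percentiles and leaving out each array. Python 3.11.15 with numpy 2.4.6, pandas 2.3.3, scipy 1.17.1 and matplotlib 3.10.9 made the tables and figures.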

Additional observations from a re-analysis of the deposited data

How the results depend on the processing

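Between 6 and 9 members were lower in DFAT cells under every alternative run, and none was higher. Centring on reference genes gave 9, and on hybridization controls 7. Leaving out each array gave 8 to 9. The share of all genes called lower, 23.8% as deposited, was not taken under the alternatives and can move too. Without AC replicate 1, for example, 20998 probe sets were called in place of 17285. These counts alone therefore do not show how the members stood among all genes under each setting. For Plin2 the call was lost on the hybridization controls (-0.26), and for the _at probe set of Plin5 it was lost with values raised to the background level (-0.48). Cideb passed the test in 5 of 16 settings, among them the replicate block, at -0.58 (adjusted p = 0.0481 from limma). Plin3 changed sign when centred on the array median (0.094), on the hybridization controls (0.43) and without AC replicate 3 (0.075), with no call, and ranged from -0.18 to 0.075 when an array was left out. By the methods' fold rule, 7 members were lower by at least 1 and 6 by at least 2. When the background level was set at the 99th percentile, 1 member was at it in AC, and none at the 95th.

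Of the lipolysis genes, 5 to 7 were lower under the alternatives, and 1 was higher on the array median, on the hybridization controls, with the floor, with dim probe sets left out, by the methods' t-test unadjusted, and with the probe set of largest difference or the mean of probe sets, and 0 to 1 when an array was left out. Of the triglyceride synthesis enzymes, 1 was higher after quantile normalization, on the reference genes, with the floor and by the methods' t-test, adjusted or not, 5 with the probe set of largest difference, 0 by the fold rule at 2, and 1 to 3 when an array was left out. Of the other surface proteins, 15 were lower on the reference genes, 4 on the hybridization controls, and 4 and 2 by the fold rule at 1 and 2, with 2 and 1 higher by that rule. Of the transcription factors, 5 were lower by the fold rule at 2, 1 was higher on the hybridization controls, and 0 to 1 was higher when an array was left out. Cause was not tested beyond what these settings change by construction.

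AC and DFAT arrays share replicate numbers, and the labels do not say whether these mark pairs. Deviations of same-numbered arrays from their group means correlated at -0.02, -0.03 and 0.01. Such deviations need not carry a shared origin, so these values do not decide whether the arrays were paired. With the replicate block, 16023 probe sets were called in place of 17285, and 9 members were lower.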
